A study of Mus musculus with 24 samples.

Results

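Microglia and complement genes of the hippocampus are 30 listed genes, chosen by name and not by any measured value. They mark microglia or encode the complement proteins and phagocytic receptors on which these cells rely. Probes of the arrays were matched to them through their RefSeq accessions, and 29 of the 30 genes had at least 1 probe, 40 probes in all. Cd68 was the member without a matched probe. The brightest probe stands for each gene, and the array as a whole held matched probes for 19751 genes. Hippocampal RNA came from C57BL/6J x 129S6/SvEv hybrid mice aged 4 weeks by the sample labels, described as congenic in F1 and mixed in F2. All offspring ate a control diet themselves. The groups differ in what the father (F1) or grandfather (F2) was fed for 6 weeks before mating, either a control diet (CD) or a methyl donor-rich diet (MD, 3MS ZM) with added methionine, choline, betaine, folic acid, vitamin B12 and zinc. The 4 groups, CD and MD in F1 and CD and MD in F2, held 6 arrays each, and each array carried a pool of 4 mice. Pools average over animals, so differences between single mice are not seen, and p-values measure the spread between pools.

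Microglia are the resident macrophages of the brain. They depend on signals through the CSF1 receptor, survey neurons with receptors for fractalkine and extracellular nucleotides, and use complement to tag and engulf synapses and debris. In the hippocampus this complement-dependent pruning is known as part of the maturation of circuits. In whole tissue, fewer microglia and less RNA per microglial cell cannot be told apart.

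The median intensity per array lay between 148 and 318, and 27383 to 37013 of 43020 spots were well above background, from 33926 upward in F1 and from 27383 to 34661 in F2. Signals are given as log2 intensity after quantile normalization within a generation. Levels are compared for a given probe between arrays only, since probes of different genes differ in brightness for reasons other than RNA amount. Between generations they are compared only after a common normalization of all 24 arrays. Of the 29 members, 27 were well above background on all 24 arrays, and 0 of their probe values were saturated. Spi1, which encodes the transcription factor PU.1, stood well above background on 0 of 12 F1 arrays, and Cd53 was dim on 1 MD F2 array. All 8 listed neuronal and all 8 astrocyte marker genes were well above background on every array. One array, MD F1 replicate 6, dominated the largest axis of variation in F1 (score 0.90), and several F1 diet effects are also given without it. F1 and F2 arrays lay on different slides and were scanned on different days.

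No member passed the threshold for an effect of the diet. In F1, 0 of 29 members were called at an FDR under 0.1 (limma, Benjamini-Hochberg over all probes), where 0.0330% of 39429 probes were called (0.00507% higher and 0.0279% lower). At an unadjusted p under 0.05 there were 6 members (20.7%), 3 higher and 3 lower in MD F1, beside 13.4% of all genes (7.82% higher and 5.54% lower). In F2, 0 of 29 members were called, as were 0% of 39423 probes, and 1 member (3.45%) had an unadjusted p under 0.05 beside 5.65% of all genes (2.84% higher and 2.81% lower). The difference of the diet effects between F1 and F2 (diet by generation interaction) called 0 of 29 members and 0.0127% of probes (0.00761% higher and 0.00507% lower in F1), with 3 members (10.3%) at an unadjusted p under 0.05 beside 7.99% of genes (4.54% higher and 3.45% lower). The mean of both diet effects, added after the values were seen, called 0 of 29 members beside 0.0431% of probes (0.0203% higher and 0.0228% lower). At an unadjusted p under 0.05 it gave Aif1 and P2ry13 as higher and Csf1r and Ctss as lower, 4 of 29 members beside 10.2% of genes (5.89% higher and 4.28% lower). Median log2 fold changes over the members were -0.0019 in F1 and -0.0038 in F2, against 0.019 and 0.0054 over all genes. The average signal of the 27 members well above background lay between 10.73 and 10.86 in CD F1 and between 10.74 and 10.87 in MD F1. In F2 it spanned 10.62 to 10.79 in CD and 10.61 to 10.76 in MD, so the groups overlapped almost fully in both generations.

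**Figure D1:**
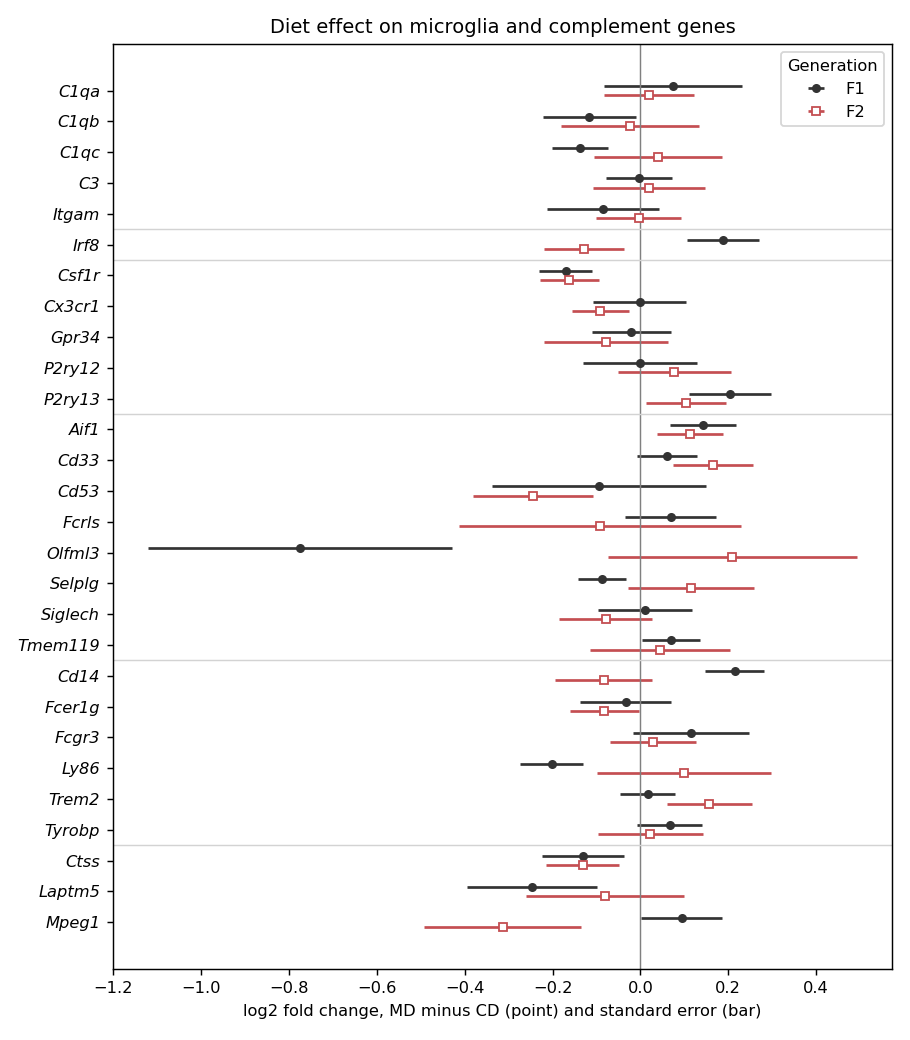
Log2 fold change (MD minus CD) of 28 members in F1 (filled circles) and F2 (open squares), with the standard error from limma as bars and grey lines between functional groups. Most points lie within 0.2 of 0, Csf1r and Ctss lie below 0 by about the same amount in both generations, and Spi1 is left out because its probe was near background in F1.

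Csf1r, the receptor for CSF1 and IL-34 that microglia need to survive, had lower signal with the methyl diet in both generations without passing the threshold. In F1 its lowest, median and highest log2 signals were 13.59, 13.74 and 13.80 in CD and 13.43, 13.56 and 13.69 in MD. MD minus CD was -0.17 on the log2 scale (standard error, SE, 0.060, unadjusted p = 0.014, FDR 0.262, limma). In F2 the signals were 13.39, 13.44 and 13.55 in CD and 13.11, 13.30 and 13.46 in MD, a log2 difference of -0.16 (SE 0.067, unadjusted p = 0.034, FDR 0.89). The groups overlapped in each generation, by 2-sided exact permutation test p = 0.0043 in F1 and 0.011 in F2. The mean of MD lay below that of CD on 6 of 6 slides, by 0.10 to 0.28. F1 and F2 shared no arrays, and the interaction was 0.0085 (SE 0.085). Averaged over both generations the effect was -0.16 (SE 0.042, FDR 0.19, limma). With array weights in limma, the F1 effect was -0.20 with an FDR of 0.097, which is under the threshold, while the other settings tried gave FDRs from 0.16 to 0.43. Its dimmer probes gave -0.10 and -0.16 in F1 and -0.18 and -0.34 in F2, each with an unadjusted p above 0.05 (limma). They were 3.84 and 4.50 log2 units dimmer and did not follow the brightest probe over arrays throughout. Their Pearson's r with it was 0.17 and 0.75 in F1 and -0.48 and -0.25 in F2.

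Markers of other cell types were set beside these values, and none of them passed an FDR under 0.1 (limma) in either generation. In F1 all 8 astrocyte markers, 6 of 7 oligodendrocyte markers and 7 of 8 neuronal markers had negative log2 fold changes, with medians of -0.098, -0.19 and -0.072, where 8938 of all 19751 genes were negative. At an unadjusted p under 0.05, 2, 2 and 1 genes of these lists were lower, beside 5.54% of all genes, and 0 were higher, beside 7.82%. The F1 groups of the oligodendrocyte marker Mobp did not overlap, which held for 1.67% of all genes. In F2 the negative ones were 4 of 8, 6 of 7 and 5 of 8, where 9538 genes were negative. The 8 choroid plexus markers were all positive in F1 (median 0.51) and all negative in F2 (median -2.26), with 0 of 8 at an unadjusted p under 0.05 in each. Within groups, over 12 arrays each, r of Csf1r in F1 and F2 was 0.53 and -0.015 with a list of other microglia genes. It was -0.21 and 0.44 with the astrocyte list, -0.53 and 0.013 with the oligodendrocyte list and -0.037 and -0.57 with the neuronal list. With the choroid plexus list it was -0.47 and 0.33, with the endothelium list -0.10 and 0.22 and with the lymphocyte and neutrophil list -0.71 and -0.27. The part of these other cell types in the Csf1r result was not tested. Of the ligands, Il34, which neurons express, was at 0.21 in F1 as a log2 difference (SE 0.084, unadjusted p = 0.029, FDR 0.307, limma), and its groups overlapped.

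None of the 5 complement members passed the test in either generation. C1qa, C1qb and C1qc encode the chains of C1q, which starts the classical pathway, C3 is its central component, and Itgam encodes a chain of the C3 receptor with which microglia take up tagged synapses. C1qa signals were 9.18, 9.48 and 9.57 (lowest, median, highest) in CD F1 and 9.04, 9.43 and 10.03 in MD F1, and 10.99, 11.29 and 11.60 in CD F2 and 11.23, 11.27 and 11.47 in MD F2. C1qb lay at 9.24, 9.43 and 9.54 in CD F1, 9.02, 9.31 and 9.59 in MD F1, 9.69, 10.21 and 10.44 in CD F2 and 9.72, 10.04 and 10.37 in MD F2. The diet groups overlapped for both genes in both generations. For C1qa the difference between diets on the log2 scale was 0.07 in F1 (SE 0.157, FDR 0.839) and 0.02 in F2 (SE 0.102, FDR 0.997, limma). Without MD F1 replicate 6, which held the highest C1qa value of its group, the F1 difference was -0.028, without MD F1 replicate 4 it was -0.0012, and with the sex measure as a covariate it was -0.20. For C1qb it was -0.12 in F1 (SE 0.105, FDR 0.616) and -0.02 in F2 (SE 0.158, FDR 0.997, limma). C1qc was the complement member nearest to the threshold, with 11.32, 11.47 and 11.66 in CD F1 and 11.29, 11.35 and 11.38 in MD F1, which is a log2 difference of -0.14 (SE 0.064, unadjusted p = 0.052, FDR 0.348, limma). Its 6 MD F1 arrays lay close together (SD 0.029) while the CD F1 arrays spread more widely (SD 0.13). In F2 C1qc was at 11.35, 11.78 and 12.11 in CD and 11.54, 11.77 and 11.99 in MD, a log2 difference of 0.041 (SE 0.15).

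C3 signals were 8.55, 8.64 and 8.86 in CD F1 and 8.53, 8.68 and 8.80 in MD F1, and 8.68, 9.08 and 9.36 in CD F2 against 8.80, 9.08 and 9.25 in MD F2. Its medians differed by less than the spread in either generation, with log2 fold changes of -0.0034 and 0.020 (SE 0.075 and 0.127, FDR 0.989 and 0.997, limma). Itgam had log2 fold changes of -0.085 and -0.0038. Of 26 further complement genes with a probe, 1 was higher at an unadjusted p under 0.05 in F1 and 1 was higher and 1 lower in F2, with 0 called. Over all genes 7.82% were higher and 5.54% lower in F1, and 2.84% and 2.81% in F2. C4b, a classical pathway component made largely by astrocytes, had a log2 difference of 0.19 in F1 (SE 0.081, FDR 0.313, limma), and Cr2 and C1ra had 0.28 and -0.45 in F2 (FDR 0.89 each).

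Among the activating receptors, Cd14, the lipopolysaccharide co-receptor, was the 1 member whose F1 groups did not overlap (3.45% of members, beside 1.67% of all genes). In F2 this held for 0 members, beside 0.380% of genes. Its signals were 7.94, 7.98 and 8.07 in CD F1 and 8.08, 8.16 and 8.46 in MD F1. MD minus CD was 0.21 on the log2 scale (SE 0.068, unadjusted p = 0.0081, FDR 0.234, limma), and MD was above CD on all 3 slides. Its highest value came from MD F1 replicate 6, without which the effect was 0.16 (FDR 0.183). With the sex measure, the signal of Y-linked genes minus that of Xist, as a covariate it was 0.11 (FDR 0.555). That measure was not equal between the F1 diet groups, from -2.30 to -1.90 in CD F1 and from -2.15 to 0.16 in MD F1. In F2 Cd14 lay at 7.995, 8.43 and 8.46 in CD and 8.02, 8.25 and 8.44 in MD, with a log2 fold change of -0.083. The interaction was 0.29 (SE 0.13, unadjusted p = 0.032, FDR 0.551, limma).

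Ly86 encodes MD-1, which partners a Toll-like receptor homologue. It was at 11.03, 11.23 and 11.36 in CD F1 and 10.85, 11.06 and 11.12 in MD F1, which is a log2 difference of -0.20 (SE 0.072, unadjusted p = 0.016, FDR 0.271, limma). The F1 groups overlapped, and MD was below CD on all 3 F1 slides. In F2 the CD arrays spread from 9.90 to 11.16 with a median of 10.44, the MD arrays from 10.39 to 10.85 with a median of 10.43, and slides disagreed in sign. Trem2, the lipid-sensing receptor that drives the response of microglia to damage, was at 11.76, 11.85 and 11.91 in CD F1 and 11.67, 11.88 and 11.96 in MD F1. In F2 it was at 11.02, 11.10 and 11.22 in CD and 11.07, 11.16 and 11.55 in MD (log2 fold changes 0.016 and 0.16, FDR 0.919 and 0.916, limma). Its signalling adaptor Tyrobp had log2 fold changes of 0.066 and 0.022, the adaptor Fcer1g -0.034 and -0.082, and the IgG receptor Fcgr3 0.12 and 0.029.

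Irf8, the transcription factor that with PU.1 sets the microglial programme, was at 9.05, 9.20 and 9.32 in CD F1 and 9.16, 9.35 and 9.66 in MD F1. The effect was 0.19 (SE 0.083, unadjusted p = 0.042, FDR 0.333, limma), above 0 on all 3 slides, 0.13 without MD F1 replicate 6, and 0.059 with the sex measure as a covariate. In F2 the signals were 9.17, 9.35 and 9.64 in CD and 9.02, 9.27 and 9.40 in MD, with a log2 fold change of -0.13. Irf8 had the lowest FDR of the members for the interaction (0.32, SE 0.12, unadjusted p = 0.017, FDR 0.494, limma). Spi1 was well above background on 0 of 12 F1 arrays, so that no fold change is given there, and on 4 of 6 arrays of each F2 group. F2 signals of Spi1 ran from 1.48 to 4.51 (median 3.87) in CD and from 1.53 to 4.04 (median 3.58) in MD, a log2 difference of -0.29 (SE 0.56, FDR 0.981, limma).

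**Figure D2:**
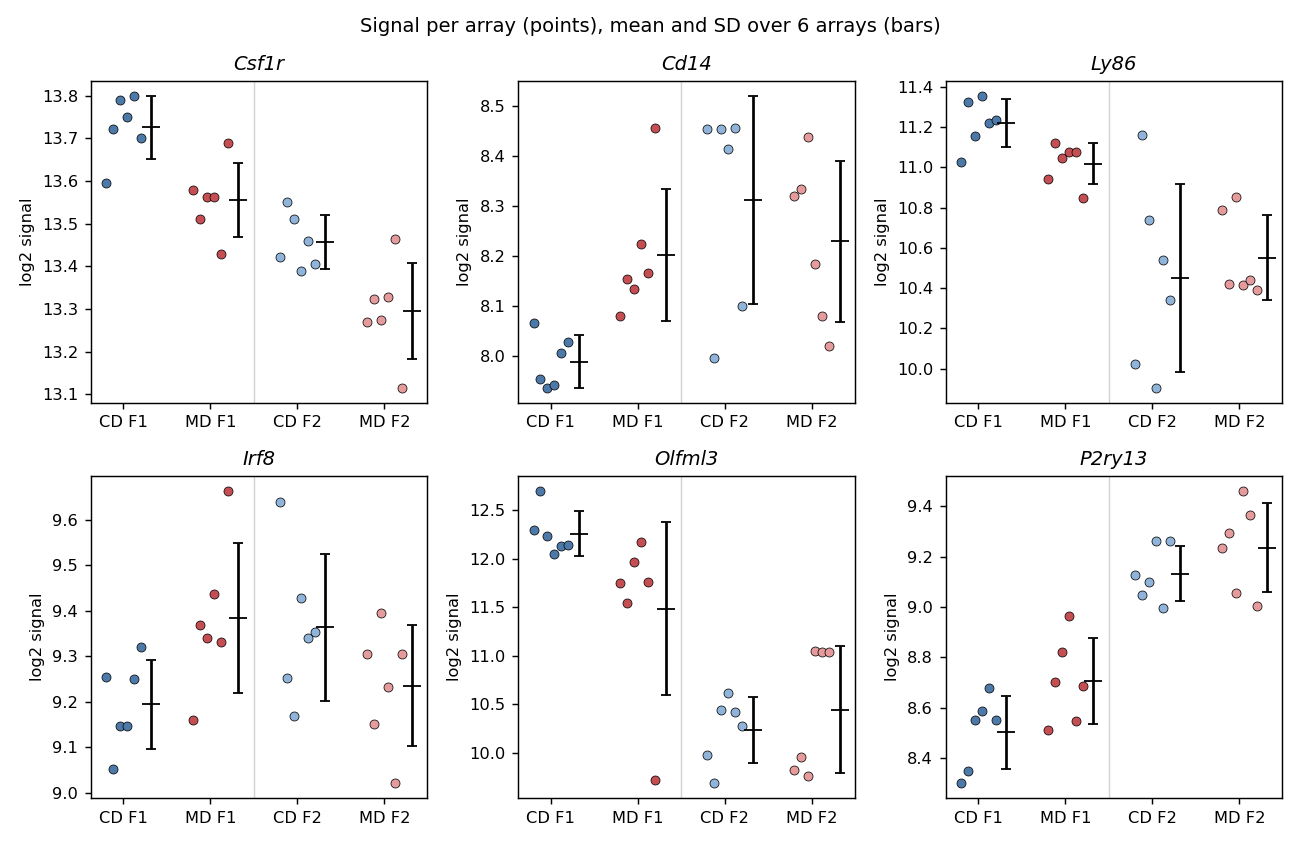
Log2 signal per array for the 6 members with an unadjusted p under 0.05 in F1, with the mean and SD of 6 arrays beside the points of each group; the y axes do not start at 0 and differ between panels. Signals were normalized within each generation, so levels are not to be compared between F1 and F2 here. Csf1r is lower with the methyl diet in both generations, while Olfml3 in MD F1 holds 1 array at 9.71 far below the other MD F1 arrays.

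Among the receptors with which microglia survey neurons, P2ry13 alone had an unadjusted p under 0.05, in F1. Cx3cr1, the fractalkine receptor, was at 12.15, 12.24 and 12.46 in CD F1 and 12.05, 12.21 and 12.70 in MD F1, and at 11.79, 11.88 and 11.98 in CD F2 and 11.65, 11.80 and 11.93 in MD F2. P2ry12, the ADP receptor of resting microglia, was at 10.21, 10.48 and 10.702 in CD F1 and 10.04, 10.52 and 10.75 in MD F1, and at 9.94, 10.15 and 10.38 in CD F2 and 9.94, 10.17 and 10.57 in MD F2. Both genes overlapped between diets throughout, with log2 fold changes of -0.0019 and -0.00090 in F1 and -0.091 and 0.078 in F2. The SE was 0.106 and 0.065 for Cx3cr1 (FDR 0.995 and 0.922, limma) and 0.13 and 0.128 for P2ry12 (FDR 0.998 and 0.972, limma). Without MD F1 replicate 6 the F1 values were -0.089 for Cx3cr1 (FDR 0.58) and 0.086 for P2ry12 (FDR 0.743). P2ry13, a related ADP receptor, was at 8.30, 8.55 and 8.68 in CD F1 and 8.51, 8.70 and 8.96 in MD F1, which is a log2 difference of 0.20 (SE 0.093, unadjusted p = 0.050, FDR 0.345, limma) that was 0.13 with arrays scaled to their 75th percentile and 0.13 with the sex measure as a covariate. In F2 it was at 8.998, 9.11 and 9.26 in CD and 9.01, 9.26 and 9.46 in MD, with a log2 fold change of 0.10. Gpr34, a lysophosphatidylserine receptor, had -0.021 and -0.079.

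Of the other identity markers, Aif1 (IBA1), the usual histological marker of microglia, was at 11.86, 11.94 and 12.07 in CD F1 and 11.84, 12.10 and 12.27 in MD F1. In F2 it was at 10.11, 10.20 and 10.32 in CD and 10.07, 10.34 and 10.47 in MD. Its log2 fold changes were 0.14 and 0.11 (SE 0.075 and 0.076, FDR 0.396 and 0.92, limma), within the overlap of the groups. Olfml3, a secreted protein enriched in microglia, was at 12.05, 12.19 and 12.70 in CD F1 and 9.71, 11.76 and 12.18 in MD F1, which is a log2 difference of -0.77 (SE 0.35, unadjusted p = 0.045, FDR 0.339, limma). Without MD F1 replicate 6, the array at 9.71, it was -0.42 (FDR 0.216), with the sex measure as a covariate it was -0.23, and the gene's other probe gave -0.012. In F2 the MD arrays fell into 9.76 to 9.96 for replicates 1 to 3 and 11.04 to 11.05 for replicates 4 to 6. The F2 labels code the former lh and the latter rh, without an explanation, and the CD F2 arrays ran from 9.69 to 10.62 with both codes overlapping.

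The remaining markers and the lysosomal genes had unadjusted p above 0.05 in both generations. Tmem119, a marker that separates microglia from blood-borne macrophages, had log2 fold changes of 0.070 and 0.045, Siglech 0.010 and -0.079, Fcrls 0.069 and -0.092, Selplg -0.087 and 0.12, Cd33 0.060 and 0.17 and Cd53 -0.095 and -0.24. For the protease Ctss (cathepsin S) they were -0.13 and -0.13, for Laptm5 -0.25 and -0.081 and for Mpeg1 (perforin-2) 0.094 and -0.31. The probes of a gene did not always agree. Siglech had a second probe, named after its values were seen, with 10.49, 10.60 and 10.68 in CD F1 and 10.30, 10.37 and 10.42 in MD F1. These groups did not overlap, a log2 difference of -0.23 (SE 0.053, unadjusted p = 0.00096, FDR 0.194, limma), and MD was below CD on 6 of 6 slides over both generations. The brightest Siglech probe was 6.86 log2 units brighter and showed no such difference. The brightest Itgam probe was 9.61 and 10.65 log2 units above the others of that gene. After common normalization of both generations, its mean signal was 16.72 in CD F1 and 16.67 in CD F2. That of the brightest Siglech probe was 17.10 in CD F1 and 17.47 in CD F2. These 2 probes stand for Itgam and Siglech in the covariation, the average of the members and the comparison of generations. Which probe reports the transcript was not tested.

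Lists of other microglial genes were counted in the same way, beside 7.82% of all genes higher and 5.54% lower at an unadjusted p under 0.05 in F1 and 2.84% and 2.81% in F2. Of 35 other microglia genes, 2 were higher and 1 lower at an unadjusted p under 0.05 in F1, with Ptpn6, Cd84 and Tlr2 at log2 fold changes of 0.33, -0.30 and 0.41, and 2 were higher and 1 lower in F2, led by Lpcat2 at -0.84 (FDR 0.89, limma). Of 16 signals to and from microglia, 3 were higher in F1 (Entpd1 0.75, Il34 0.21, Sirpa 0.22) and 1 lower in F2 (Gas6, -0.48). Of 17 activation genes, 3 were higher in F1 (Cd74 0.57, Ifit3 0.26, Cst7 0.85), where the list's median log2 fold change was 0.11, and 4 were lower in F2, with Lpl at -0.92, Ccl2 at -0.46 and Cxcl10 at -1.62 and a median of -0.24. Only 9 of the 17 were well above background on all 24 arrays. Cxcl10 was dim, with mean signals of 5.46 in CD F2 and 3.84 in MD F2, and Ccl2 was at 4.78 and 4.32. None of the genes on these lists passed an FDR under 0.1 by limma in either generation. Of 12 genes of border macrophages and monocytes, 1 was lower in F1 and 2 were lower in F2 at an unadjusted p under 0.05, and all 12 had negative log2 fold changes in F2 (median -0.26, with 9538 of 19750 genes negative) beside the negative values of the choroid plexus markers given above. Their part in this result was not tested. The average log2 signal of the 6 border macrophage genes well above background ranged from 7.90 to 8.51 in CD F2 and from 7.84 to 8.27 in MD F2. Of these 12, F13a1 and Cbr2 were lowest in p in F2 (-0.39 and -0.37), and Cd163, the gene lower in F1, stood well above background on 0 of 12 F1 arrays. Lymphocyte and neutrophil genes counted 0 in F1 and 1 of 11 in F2, Cd3e at 0.34, and red blood cell genes 0 of 5 in both.

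The brightest probes of the members did not vary as 1 block over arrays. Covariation was described by Pearson's r between members after removal of the group means, over the 12 arrays of a generation, which share slides and normalization. Probes of 1 gene did not always vary together, with r to the brightest probe from -0.39 (Mpeg1) to 0.84 (Laptm5) in F1. In F2 this r ran from -0.48 (Csf1r) to 0.97 (Laptm5). The r values between members therefore hold for the probes used. Over 378 pairs of 28 members in F1 the median r was 0.099, with a middle range (quartiles) of -0.28 to 0.42, and over 351 pairs of 27 members in F2 it was 0.0081, from -0.29 to 0.34. Over all pairs of the 16068 and 13853 genes well above background, the median was 0.017 and 0.0045. Pairs with r above 0.7 made up 6.61% of member pairs beside 4.46% of all pairs in F1, and 5.41% beside 5.23% in F2. Pairs with r below -0.7 made up 3.7% of member pairs beside 3.97% of all pairs in F1, and 1.71% beside 4.84% in F2. Negative pairs were 41.8% and 49.3% of member pairs, a share that was not counted over all pairs. Only C1qa and C1qb had r above 0.7 in both generations, out of 23 such pairs in F1 and 19 in F2 among the 351 pairs measured in both. Of these 351 pairs, 170 had opposite signs in F1 and F2. Neither count was made over all pairs of genes.

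**Figure D3:**
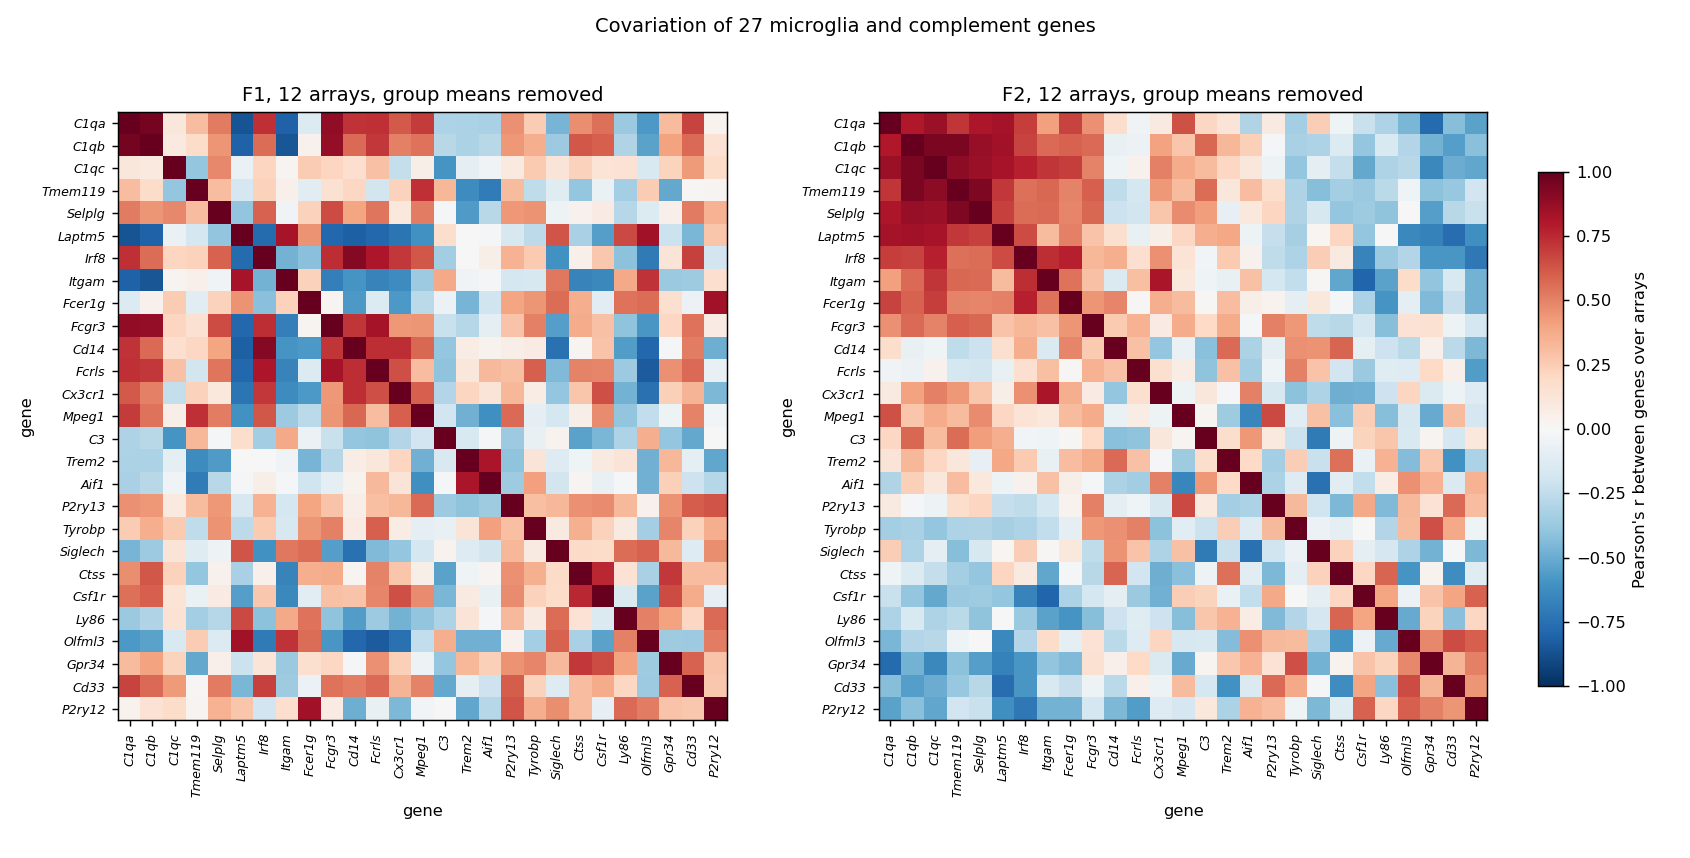
Pearson's r between 27 members over the 12 arrays of F1 (left) and F2 (right), group means removed, with genes in the same order in both panels and colours from -1 (blue) to 1 (red). In F2 C1qa, C1qb, C1qc, Tmem119, Selplg and Laptm5 form a positive block, and in F1 the same corner splits, with Laptm5 opposite to C1qa and C1qb.

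The C1q genes are neighbours in the genome and their proteins assemble into 1 complex. C1qa and C1qb had r = 0.96 in F1 and 0.80 in F2, and 0.95 and 0.79 without the 3 arrays that stood apart in earlier results (MD F1 replicate 6, CD F2 replicate 6, MD F2 replicate 3). C1qc followed them in F2 (r = 0.86 with C1qa and 0.94 with C1qb) and not in F1 (0.11 and 0.10); the difference between generations was not tested. Tmem119 had r = 0.94 with C1qb in F2 and 0.18 in F1, and Laptm5 had 0.84 in F2 and -0.81 in F1. Selplg, the ligand of P-selectin, had r = 0.87 with C1qb in F2 and 0.44 in F1. In F1 other pairs stood out, P2ry12 with Cd53 (r = 0.97), Cd14 with Irf8 (0.92, in F2 0.36) and Trem2 with Aif1 (0.82, in F2 0.20).

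Promoters are shown for C1qb and C1qc and for Laptm5, which moved with them in F2, and for Ctss, which held both motifs searched for microglial factors. They run 5′ to 3′ from 250 bases before to 50 after the RefSeq transcription start (GRCm38.p6), and capitals mark the PU.1 motif GAGGAAGT or the ETS-IRF composite GGAANNGAA on either strand.
C1qb (chr4:136886151-136886450, minus strand): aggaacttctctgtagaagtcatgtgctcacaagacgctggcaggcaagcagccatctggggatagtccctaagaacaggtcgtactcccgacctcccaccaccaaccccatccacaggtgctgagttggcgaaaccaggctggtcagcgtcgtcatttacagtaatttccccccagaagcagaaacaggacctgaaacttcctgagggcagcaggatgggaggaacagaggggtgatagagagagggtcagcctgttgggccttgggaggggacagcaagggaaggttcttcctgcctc
C1qc (chr4:136892865-136893164, minus strand): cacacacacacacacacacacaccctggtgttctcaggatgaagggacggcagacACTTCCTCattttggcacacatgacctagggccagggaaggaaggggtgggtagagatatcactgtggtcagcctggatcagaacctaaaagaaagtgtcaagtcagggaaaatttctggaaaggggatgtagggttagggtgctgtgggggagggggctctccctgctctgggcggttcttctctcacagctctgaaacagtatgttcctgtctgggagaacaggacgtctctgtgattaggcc
Laptm5 (chr4:130913066-130913365, plus strand): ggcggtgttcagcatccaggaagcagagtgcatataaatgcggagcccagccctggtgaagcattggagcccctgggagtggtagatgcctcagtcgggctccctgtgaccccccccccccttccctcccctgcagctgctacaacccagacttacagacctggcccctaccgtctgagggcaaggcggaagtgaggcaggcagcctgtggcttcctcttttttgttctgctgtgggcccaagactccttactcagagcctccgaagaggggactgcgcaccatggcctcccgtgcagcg
Ctss (chr3:95526536-95526835, plus strand): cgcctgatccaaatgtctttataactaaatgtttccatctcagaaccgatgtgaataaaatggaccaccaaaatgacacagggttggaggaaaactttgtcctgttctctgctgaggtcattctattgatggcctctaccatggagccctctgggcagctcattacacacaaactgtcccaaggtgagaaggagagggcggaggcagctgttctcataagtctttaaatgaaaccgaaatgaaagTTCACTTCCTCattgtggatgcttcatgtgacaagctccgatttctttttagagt
The C1qc window held 1 PU.1 motif on its minus strand, starting 195 bases before the start. Ctss held a PU.1 motif and an overlapping composite motif on the minus strand at 2 and 5 bases before it, and the C1qb and Laptm5 windows held neither. Of 24 promoters of 22 members in the table, 3 (12.5%) held the PU.1 motif, beside 3.20% of 32851 mouse promoters, and 2 (8.33%) held the composite, beside 8.24%. TATAAA was found in 5 of the 24 (20.8%), beside 13.6%. These are matches of letters and not measured binding.

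The F2 block lay along an array-wide axis. The first principal component of all genes well above background carried 33.4% of the variance in F1 and 35.5% in F2. Its sign was set so that the average of the C1q genes correlates positively with it. In F2 its r was 0.84 with C1qa, 0.94 with C1qb, 0.93 with C1qc, 0.83 with Tmem119, 0.79 with Selplg and 0.88 with Laptm5. With that sign, 6 of 27 members had r above 0.7 beside 16.6% of 13853 genes, and 0 had r below -0.7 beside 17% of genes. The average of the 3 C1q genes had r above 0.8 with 1389 of 13850 other genes in F2, of which 3 were members. Over the 12 F2 arrays its r was 0.89 with the neuronal list, 0.70 with the oligodendrocyte list, 0.67 with the other microglia genes and 0.66 with the lymphocyte and neutrophil list. In F1 these were -0.12, -0.26, 0.48 and -0.56. Lowest C1q averages in F2 were 10.69 in CD F2 replicate 5 and 10.72 in CD F2 replicate 3, and the highest was 11.35 in CD F2 replicate 1. These 2 low arrays belong to the 3 F2 arrays with a negative sex measure (-7.66 and -7.57), and the other one, MD F2 replicate 6 (-7.43), had a C1q average of 11.08, within the range of the 9 F2 arrays with a positive sex measure. The C1q average had r = 0.57 with the sex measure over the 12 F2 arrays and 0.50 in F1, and its part in the axis was not tested. In F1 the score of MD F1 replicate 6 on this component was 0.90 and those of the other arrays lay between -0.24 and 0.073. Correlations with that component are therefore not given for F1.

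**Figure D4:**
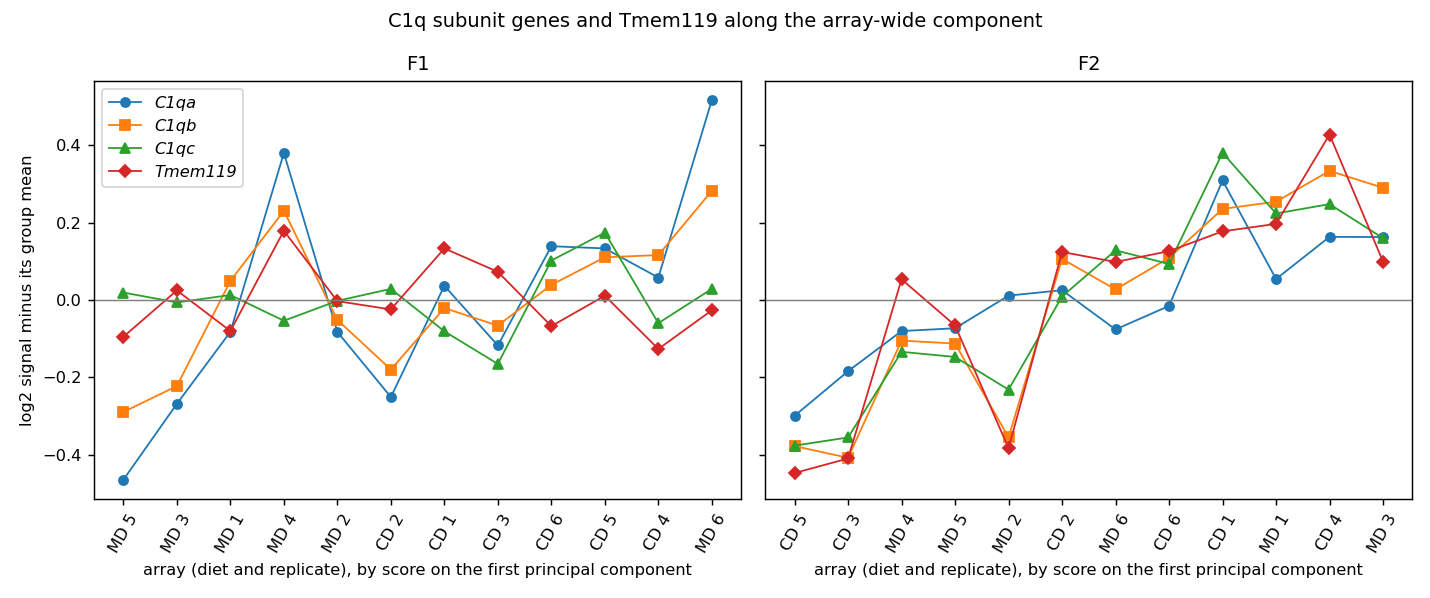
Log2 signal minus its group mean for C1qa, C1qb, C1qc and Tmem119 on each array, with arrays ordered by their score on the first principal component of all genes in F1 (left) and F2 (right). In F2 the 4 genes are low in CD F2 replicates 5 and 3 on the left and mostly above 0 on the right, while in F1 C1qa and C1qb move together and C1qc does not follow them.

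Outside the lists, genes whose signal was among the most like the average of the members (Pearson's r, 12 arrays, group means removed) were Gal3st3 (0.94), Eri3 (0.91), Vps4a (0.91) and Gstm5 (0.91) in F1 and Efhd2 (0.97), Abtb1 (0.96), Smg9 (0.95), Epop (0.94) and Tsks (0.93) in F2. Their r in the other generation ran from 0.75 for Gal3st3 to -0.75 for Tsks.

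Levels differed between the generations by more than between the diets. After common normalization of all 24 arrays, 14 of 29 members (48.3%) did not overlap between CD F1 and CD F2, beside 41.2% of all genes. Of these 14 members, 11 were higher and 3 lower in CD F2, a split that was not counted over all genes. C1qa was at 9.29 ± 0.15 in CD F1 and at 11.48 ± 0.23 in CD F2 (SD over 6 arrays in both), and Selplg at 10.50 ± 0.084 and 11.64 ± 0.36. Aif1 was lower in F2, at 11.74 ± 0.073 against 10.35 ± 0.087, as were Olfml3 (12.04 ± 0.22 against 10.39 ± 0.35) and Trem2 (11.64 ± 0.063 against 11.29 ± 0.085). These values hold for the brightest probes, and other probes were not compared between generations. The other Olfml3 probe had r = 0.80 in F1 and -0.37 in F2 with the brightest one over arrays. Itgam, Fcer1g, Ctss, Laptm5 and P2ry12 differed by less than 0.05. The sex measure lay between -2.30 and -1.90 on the CD F1 arrays and between -2.15 and 0.16 on the MD F1 arrays. It ran from -7.66 to 7.02 on the CD F2 arrays and from -7.43 to 7.26 on the MD F2 arrays. Generation, slide, scan day, hybrid background and the sex make-up of the pools cannot be told apart here.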

How the data were processed

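Hippocampal RNA pools were hybridised to single-color Agilent mouse arrays, 6 per group. The authors deposited, per array, Feature Extraction output (version 10.7.3.1 per the file headers), whose processed intensity is linear, background-subtracted and not scaled between arrays; a deposited table of their quantile-normalized linear intensity values served as an alternative. Spots marked irregular (1939 in F1, 2097 in F2) were left out, log2 intensities were quantile-normalized over spots within each generation (all 24 arrays together for the interaction) and spots of a probe averaged. Group means were fitted with limma 3.58.1 (R 4.3.3) and tested over all probes, with calls at an FDR under 0.1. The fit was tested on simulated data. Named in full are members with an unadjusted p under 0.05 and 10 others fixed by role; of other lists, up to 3 genes by p. One of the genes most like the members' average is not reported here. Replicate numbers did not pair arrays (r of deviations -0.053 to 0.21 in F1, -0.17 to 0.19 in F2). Sequences came from RefSeq tables (GRCm38.p6). The members and lists were chosen with earlier results of these data known. The number of arrays limits precision. The alternatives covered scaling, background correction, probes, spots, covariates, blocks and arrays left out.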

Additional observations from a re-analysis of the deposited data

Results flagged for a closer look

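In 6 of 120 groups of 6 arrays, 1 array lay far from the other 5 of its group by Dixon's test, where chance flags about 1 in 20 groups, that is 6. MD F1 replicate 6 gave 3 of them, Olfml3 at 9.71 (others 11.54 to 12.18), Fcrls at 9.83 (others 9.28 to 9.43) and Siglech at 17.16 (others 17.48 to 17.62). MD F1 replicate 4 gave Spi1 at 2.35, where it was not well above background, and the average of the 27 members at 10.87 (others 10.74 to 10.78). In CD F1 replicate 2, Olfml3 was at 12.70 (others 12.05 to 12.29). No member had a diet effect that differed between F1 and F2 at an FDR under 0.1 by limma's interaction term, with 3 at an unadjusted p under 0.05.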

How the results depend on the processing

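Of 29 members, 0 were called in F1, F2 and the interaction under every setting run at an FDR under 0.1 or 0.05, except 1 member (Csf1r) called in F1 with limma's array weights. An unadjusted p under 0.05 gave 6, 1 and 3 members. With the replicate number as a block, 0 members were called in any comparison, the median log2 fold change was -0.0019 in F1 and -0.0038 in F2, and the median r was 0.085 and -0.022. Leaving out 1 array at a time gave 0 calls, medians from -0.038 to 0.026 in F1 and -0.041 to 0.029 in F2, and a median r from 0.080 to 0.13 and from -0.0021 to 0.036. The F2 median r was 0.049 with the mean of all probes of a gene. With the first principal component removed, chosen after the data were seen, it was 0.12 in F1 and 0.026 in F2. Of 733 single-gene values under alternatives, 731 kept their side of the threshold, Csf1r in F1 passed it with array weights, Spi1 in F1, near background, moved, and 0 were called with the opposite sign. The normexp correction used the median spot signal. With 6 pools per group, effects of the size of the standard errors given were not detectable.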
